A study of Danio rerio with 1324 samples.

Results

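The genes described here are the amino-acid transporter genes of the solute carrier families slc1, slc3, slc6, slc7, slc36, slc38 and slc43, followed in single beta-cells of zebrafish. Members were chosen by symbol (a name that starts with slc1a, slc3a, slc6a, slc7a, slc36a, slc38a or slc43a) and by having at least 1 read in a cell of the 7 ages with deposited counts. Of 80 genes with such a symbol 69 had a read, out of 22948 genes with a read and 31916 genes in the tables. They comprised 24 members of slc6, 16 of slc7, 11 of slc38, 8 of slc1, 5 of slc43, 3 of slc3 and 2 of slc36. The symbols were matched to a table of names that mostly holds human-style symbols, so that several zebrafish duplicates share 1 symbol and are given with their Ensembl identifier. The prefix also takes in slc7a6os, which is named for its place on the strand opposite slc7a6 and is not a transporter. The name amino-acid transporter genes follows the symbols of the families, and whether each member carries amino acids was not examined.

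Amino acids cross the cell membrane through carriers that either exchange one amino acid for another, let it run down its gradient, or couple it to sodium or protons. Carriers of slc7 include light chains that reach the surface only when bound to a heavy chain of slc3, and cationic amino-acid carriers that work alone. In beta-cells amino acids are building blocks for insulin, add to insulin secretion, and signal through the mTORC1 kinase complex, which senses leucine and arginine among others.

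Single beta-cells were sorted by the red fluorescence of Tg(ins:BB1.0L), known as Betabow, a transgene under the insulin promoter that all groups share, and their full-length cDNA was sequenced. The tables hold 1014 cells in 15 pools of cells, and each pool came from several fish of 1 age and feeding, so that the pool and not the cell was taken as the sample. The normally fed older group had 9 plate pools: 3 mpf (months post-fertilization), a first and a second pool of 4 mpf, 6, 9, 10, 12, 13 and 14 mpf. The pool of 1.5 mpf, a 3 mpf pool from a Fluidigm C1 chip and 2 pools of 4 mpf on other feeding were kept apart: 1 fed 3 times a day and 1 fed on alternate days, called intermittent, for a month from 3 mpf. Both of these were fed Artemia, and the amount eaten was not controlled. The 1 mpf group, the Juvenile stage, had 2 pools, the second of which was made on the same plate as the 13 mpf cells. The Adult stage (10, 12 and 14 mpf) and the Adolescent stage (3, 4 and 6 mpf, first pools) had 3 pools each. The 3 mpf pool and the 6 mpf pool each join 2 batches that were collected and sequenced on different days. The p-values measure the spread between these pools, and the spread between batches of 1 age does not enter the main fits.

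The cells held a median of 353385 reads, with a range of 6909 to 3457726. Levels are TPM (reads per gene length, scaled to a fixed sum per cell), which can be compared between genes, and a pool's level is the mean over its cells. The insulin gene ins took 61.9 to 74.7% of the TPM in the 9 older pools, against 51.4% and 51.7% in the 1 mpf pools, and the median cell had 2384 to 3654 genes detected in the older pools, against 4722 and 4958 in the 1 mpf pools. TPM has a fixed sum per cell, and the part of ins in the other genes' levels was examined only by rescaling without it. Over all 13500 genes tested the median change, older minus 1 mpf, was -0.58 on the log2 scale. Changes of members are therefore also given relative to this median. All 4 beta-cell markers matched (ins, pdx1, mnx1 and neurod1) were read in every pool. Markers of other cell types were present too. Summed TPM of alpha-cell markers (the glucagon genes) ranged from 437 to 26508 in older pools, against 11923 and 23368 in the 1 mpf pools, delta-cell markers (sst2 and hhex) from 0.853 to 16315, against 4191 and 11011, and immune markers from 0.863 to 782, against 431 and 7.02, of which cd74a was 426 TPM in the first 1 mpf pool. In all 73 of the 1014 cells held at least 10000 TPM of alpha and delta markers, or at least 1000 TPM of immune or of acinar markers. The immune limit was passed by 25 cells, 15 of them in the 3 mpf pool, where cd74a (769 TPM) was the only immune marker read. In the first 4 mpf pool cd74a was 742 of the 782 TPM. Whether the cells chosen by cd74a are of another type was not tested.

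The main amino-acid transporter of the beta-cells was slc1a4 (ENSDARG00000000551), which encodes an exchanger of alanine, serine, cysteine and threonine known as ASCT1 in mammals. It was the highest member in 14 of the 15 pools, with a mean of 452 TPM over the pools. Next came slc43a2 (ENSDARG00000061120), a facilitator of large neutral amino acids named LAT4 in mammals, with 190.1 TPM. The 2 copies of the heavy chain CD98 followed, slc3a2b with 106.3 TPM and slc3a2a with 80.8 TPM, and then slc7a2, a carrier of arginine and lysine, with 61.2 TPM. These 5 genes held 70.5 to 86.8% of the summed TPM of all 69 members in every pool. The remaining 7 of the 12 highest were slc43a2a (ENSDARG00000036848) with 39.5 TPM, slc38a11 with 26.3, slc6a17 with 16.8, slc7a6os with 15.9, slc38a5b with 11.6, slc7a8 with 11.3 and slc7a10 (ENSDARG00000008100) with 7.75 TPM. At the other end 35 members had a mean under 1 TPM, and the heavy chain slc3a1, the partner of the cystine light chain slc7a9, reached at most 0.0856 TPM in a pool.

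**Figure D1:**
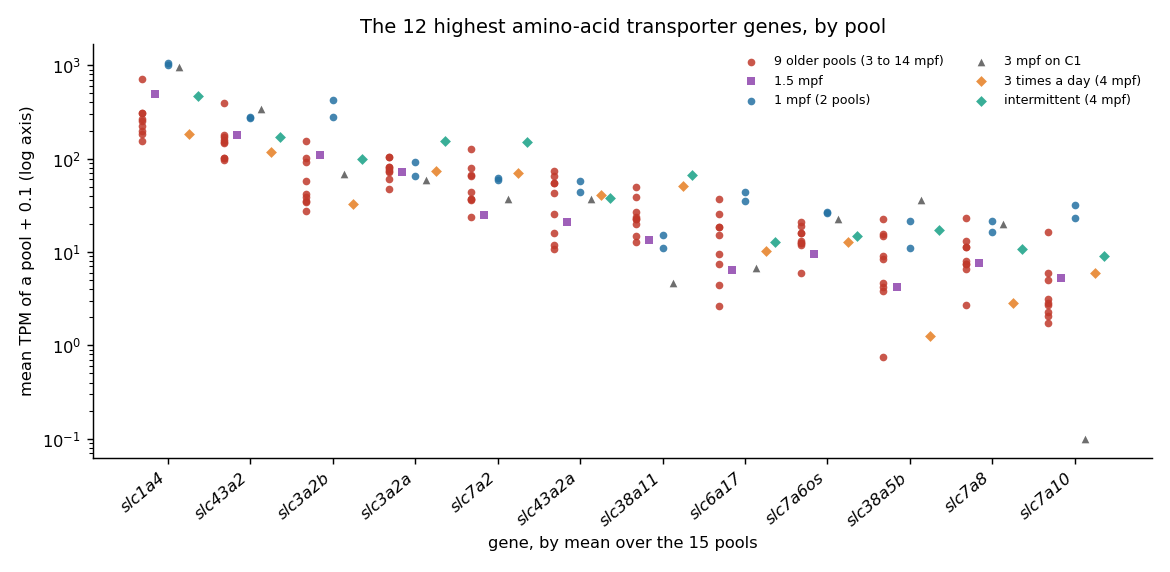
Mean TPM per pool (plus 0.1, log axis) of the 12 highest amino-acid transporter genes, ordered by their mean over 15 pools; each point is a pool. slc1a4 lies between 156.3 and 717 TPM in the 9 older pools, below both 1 mpf pools at 1004 and 1065 TPM, while slc3a2a, slc7a2 and slc38a11 do not lie lower in all older pools.

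The order near the top was not the same in all pools. In the 10 mpf pool slc43a2 had 393 TPM and slc1a4 had 222 TPM, the reverse of the order in every other pool. In the older pools slc1a4 averaged 290.3 ± 168.5 TPM and slc43a2 166.3 ± 90.1 TPM (SD, n = 9), so that these neighbours overlapped in their spread between pools. The 2 heavy chains also overlapped there, slc3a2a with 77.6 ± 17.9 TPM and slc3a2b with 64.9 ± 43.3 TPM. At 1 mpf slc3a2b was the higher copy in both pools, with 422 and 278 TPM, and slc3a2a had 91.7 and 64.4 TPM.

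The shares of cells with a read separated genes read in nearly every cell from genes read in some. To compare pools of unequal depth, cells were thinned to 100000 reads and 24 shallower cells were left out. slc1a4 was then read in 94.1 to 100% of the cells of a pool and slc43a2 in 85.4 to 100%. slc3a2a was read in 53.8 to 85.4%, slc7a2 in 38.9 to 81.6% and slc38a11 in 7.69 to 41.2%. Without thinning the ranges were close to these, with 94.3 to 100% for slc1a4 and 7.69 to 45.7% for slc38a11. For slc3a2b the share ranged from 30.2 to 93.3% over the pools, with a median of 46.8%. It was 37.9% at 14 mpf (exact 95% interval 25.5 to 51.6%), against 89.7% in the first 1 mpf pool (81.3 to 95.2%). The intervals cover counting error only. Within the 14 pools other than the C1 pool the rank correlation over cells between slc1a4 and slc43a2 ranged from -0.18 to 0.48 with a median of 0.21 (TPM sharing each cell's depth and scaling), which is given as a description.

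The comparison of older with 1 mpf pools asked which transporters differ after the Juvenile stage. Of the 69 members 42 passed the filter of at least 1 TPM in at least 2 of these pools. Of these 10 were lower in the older pools at an adjusted p under 0.05 (limma, Benjamini-Hochberg over all genes tested) and 0 were higher. Over all genes 10.6% were called lower and 0.259% higher. The median change of the 42 members was -0.88, against -0.58 over all genes, and 39 of the 42 had a negative change, as had 78.5% of all genes. The called members were slc1a4 and slc1a5 of slc1, slc3a2b of slc3, slc6a15 of slc6, slc38a4 and slc38a5 of slc38, and slc7a1, slc7a3 (ENSDARG00000020645), slc7a7 and slc7a10 (ENSDARG00000008100) of slc7. Of these slc38a5 reached 1 TPM in the 1 mpf pools only, and so entered the test only through them. slc38a4 reached 1 TPM in 1 older pool only (1.004 TPM at 10 mpf), and so also needed the 1 mpf pools to enter. In slc36 and slc43, with 2 and 4 members tested, 0 were called by limma, and 18 of the 42 members had an unadjusted p under 0.05, as had 30.3% of all genes.

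The exchanger slc1a4 had a lowest level of 156.3 TPM, a median of 255 and a highest of 717 TPM in the 9 older pools, against 1065 and 1004 TPM in the 2 pools of 1 mpf. The groups did not overlap, which was the case for 14 of the 42 members tested and for 25.3% of all genes. These counts take the joined batches of 3 mpf, and those of 6 mpf, as 1 pool. Among the 14, 1 batch of 3 mpf lay above both 1 mpf pools for slc6a15 (36 TPM) and slc38a6 (11.3 TPM). For slc7a1 (3.85 TPM) it lay above the second 1 mpf pool. The fitted change of slc1a4 was -1.98 ± 0.41 (SE; limma adjusted p = 0.00921), or -1.39 relative to the median of all genes. Other scalings gave smaller values that did not pass the test, -1.25 after rescaling without ins (limma adjusted p = 0.121), -1.22 with median-ratio size factors (limma adjusted p = 0.191), and on reads recovered from the TPM -1.04 with edgeR (adjusted p = 0.43) and -1.01 with DESeq2 (adjusted p = 0.283). The highest older pool was the second one of 4 mpf, which lay above the 493 TPM of the 1.5 mpf pool and also had the most genes detected of the older pools, a median of 3654 (the part of this in its level was not tested). The C1 pool of 3 mpf, which did not enter the fit, had 959 TPM of slc1a4, against 255 TPM in the plate pool of the same age, and with it in the older group the adjusted p was 0.0713 (limma). The closely related slc1a5, known in mammals as the glutamine exchanger ASCT2, had 0 to 3.75 TPM in the older pools with a median of 0.52, against 7.13 and 9.2 TPM at 1 mpf. Its change was -2.34 ± 0.53 (limma adjusted p = 0.0141), and 9 of 9 older pools lay below both 1 mpf pools. slc1a5 was read in 50 of the 637 cells with deposited counts. The call was lost with a pseudocount of 0.1 (limma adjusted p = 0.0793) and after rescaling without ins (limma adjusted p = 0.167). Median-ratio size factors, and edgeR or DESeq2 on recovered reads, did not call slc1a5 either.

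The heavy chain slc3a2b ranged from 27.4 to 156.3 TPM in the older pools with a median of 41.6, against 422 and 278 TPM at 1 mpf. All older pools lay lower. The change was -2.62 ± 0.54 (limma adjusted p = 0.00906), -2.04 relative to all genes. Its duplicate slc3a2a had a lowest level of 47.8, a median of 76.7 and a highest of 103.7 TPM in older pools, against 91.7 and 64.4 TPM at 1 mpf. Here the groups overlapped, and the change of -0.02 ± 0.31 had an adjusted p of 0.969 (limma). The sign of the slc3a2a change depends on the scaling, since it was 0.65 after rescaling without ins and 0.73 with median-ratio size factors. The difference between the 2 heavy chains in their change was not tested.

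**Figure D2:**
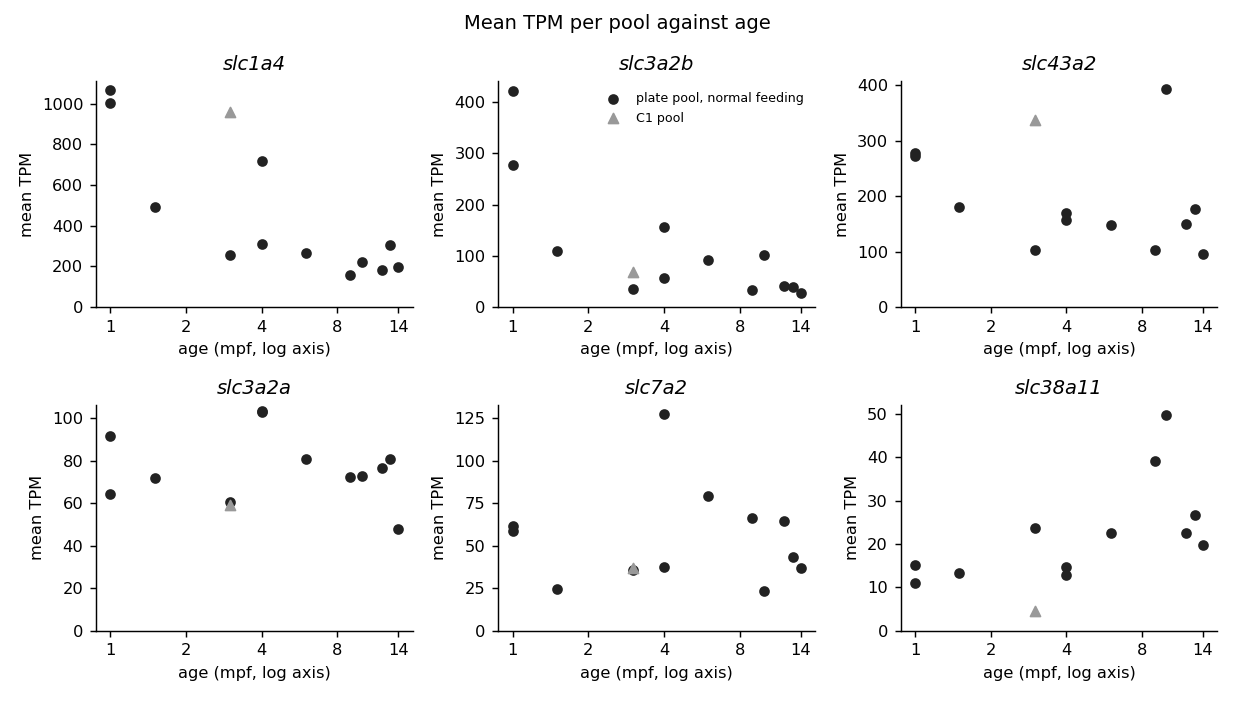
Mean TPM per pool (linear axis from 0) against age in mpf (log axis) for 6 of the 7 highest members; circles are the 12 normally fed plate pools and the triangle is the C1 pool. slc3a2b lies at 278 and 422 TPM in the 1 mpf pools and between 27.4 and 156.3 TPM from 3 mpf on, while slc3a2a stays between 47.8 and 103.7 TPM.

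Light chains that pair with CD98 were among the called genes, at far lower levels than their partner. slc7a10 (ENSDARG00000008100), whose mammalian counterpart Asc-1 carries small neutral amino acids, had 1.63 to 16.2 TPM with a median of 2.71 in the older pools, against 23.3 and 32.1 TPM at 1 mpf. Its change was -2.62 ± 0.57 (limma adjusted p = 0.0123) and the highest older pool was that of 13 mpf. The light chain slc7a8, known as LAT2, had 2.6 to 23.3 TPM, against 21.4 and 16.5 TPM, with a change of -1.01 ± 0.52 that did not pass the test (limma adjusted p = 0.199). slc7a9, the partner of slc3a1, had 0 to 6.43 TPM, against 1.89 and 0 TPM, and its value of 0.42 ± 0.71 did not pass the test either (limma adjusted p = 0.707).

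The light chain slc7a7, known as y+LAT1, had the most negative fitted value of the 42 members tested, -2.92 ± 0.80 (limma adjusted p = 0.0326). Its levels were 0 to 18.8 TPM with a median of 1.32 in older pools, against 15.8 and 29.4 TPM at 1 mpf, and 20.2 TPM at 1.5 mpf. The pools that stood high were also high in alpha and delta markers: the older pool with 18.8 TPM of slc7a7 was the first 4 mpf pool, which had the 26508 TPM of alpha markers. Of all TPM of slc7a7 83.1% lay in the 73 cells with markers of other types, which were 7.2% of the cells. With these cells left out, an alternative chosen after seeing the data, slc7a7 had 0 to 4.61 TPM in the older pools, against 0.977 and 0.513 TPM at 1 mpf, and the change was -0.01 (limma adjusted p = 0.996). Leaving these cells out left slc3a2b at -2.71 (limma adjusted p = 0.00599) and slc1a4 at -2.03 (limma adjusted p = 0.00597), and 9 of the 10 calls remained, with slc7a5, the leucine-carrying light chain LAT1, called in addition. With all cells but without the 9 mpf pool the adjusted p of slc7a7 was 0.0502 (limma).

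**Figure D3:**
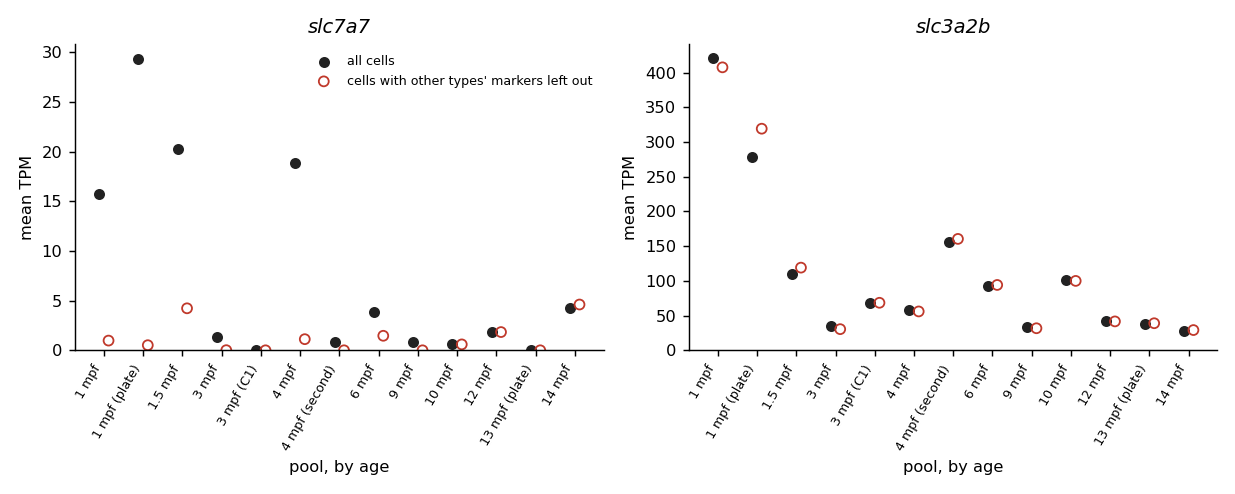
Mean TPM per pool of slc7a7 and slc3a2b in the 13 normally fed pools by age; filled points use all cells, open points leave out the cells with markers of other cell types. The open points of slc7a7 lie between 0 and 4.61 TPM, and those of slc3a2b lie at 408 and 319 TPM in the 1 mpf pools.

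Of the carriers of cationic amino acids, slc7a3 (ENSDARG00000020645) and slc7a1 were called and slc7a2 was not. The difference between their changes was not tested. slc7a2, the main one, had 23.4 to 127.8 TPM with a median of 43.6 in older pools, against 61.8 and 59 TPM at 1 mpf. The groups overlapped, and the value of -0.25 ± 0.48 did not pass the test (limma adjusted p = 0.741). slc7a3 (ENSDARG00000020645), named CAT3 in mammals, had 0.48 to 2.41 TPM, against 9.49 and 9.33 TPM, a change of -2.36 ± 0.39 (limma adjusted p = 0.00286). It stood at 20.9 TPM in the C1 pool, and with that pool added the adjusted p was 0.158. The other gene matched to slc7a3 (ENSDARG00000061566) had 0 to 1.21 TPM, against 1.04 and 0.644 TPM. Its -0.25 ± 0.35 did not pass the test (limma adjusted p = 0.646). slc7a1, named CAT1, had 0.577 to 2.43 TPM, against 5.15 and 2.97 TPM, and its -1.18 ± 0.36 was just inside the threshold (limma adjusted p = 0.0488). The collection batches of 3 mpf had 0.0599 and 3.85 TPM of slc7a1, the latter above the second 1 mpf pool. With batches as separate pools slc7a1 was not called. The slc7a1 call was lost without the 3 mpf (adjusted p = 0.0665), first 4 mpf (0.0587), 6 mpf (0.0637), 9 mpf (0.0722), 12 mpf (0.0735) or 14 mpf pool (0.0665), each left out alone.

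Of the sodium-coupled neutral amino-acid carriers of slc38, slc38a5 (ENSDARG00000009901), a glutamine carrier of system N, had 0 TPM in 6 of the 9 older pools and at most 0.662 TPM, against 4.1 and 7.28 TPM at 1 mpf. Its change was -2.60 ± 0.30 (limma adjusted p = 1.73e-04), and this size depends on the pseudocount (-5.32 with 0.1). It reached 1 TPM in the 1 mpf pools only, so that it passed the filter only through the group where it is high. Its call is given with this limit. The reads came from few cells, 12 of 87 in the first and 4 of 30 in the second 1 mpf pool. slc38a4, also known as SNAT4, had 0 to 1 TPM in older pools, against 2.42 and 2.18 TPM (-1.37 ± 0.34, limma adjusted p = 0.023), and 9.51 TPM in the C1 pool. Of the older pools only that of 10 mpf reached 1 TPM, so that slc38a4 too passed the filter only with the group where it is high. With the C1 pool added slc38a4 was at -1.06 (limma adjusted p = 0.366), and with a pseudocount of 0.1 its adjusted p was 0.101. slc38a5b (ENSDARG00000014587), the duplicate with the higher level, had 0.657 to 22.3 TPM, against 21.6 and 10.9 TPM, and its -1.05 ± 0.74 did not pass the test (limma adjusted p = 0.349).

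slc38a11, an slc38 carrier whose substrates are little known, was among the few members with a positive value. It had 12.8 to 49.8 TPM with a median of 22.6 in older pools, against 15.1 and 11 TPM at 1 mpf, and 7 of the 9 older pools lay above both. The value of 0.83 ± 0.43 did not pass the test (limma adjusted p = 0.206), although it was 1.41 above the median of all genes. On reads recovered from the TPM, DESeq2 gave 2.05 with an adjusted p of 0.00456 for slc38a11 and edgeR gave 2.01 with an adjusted p of 0.196. The 2 collection batches of an age differed as well, since slc38a11 had 15.4 and 41.2 TPM in the batches of 3 mpf, and 42.8 and 7.12 TPM in those of 6 mpf. The other members at this end were slc6a18, named B0AT3 in mammals, which had 0 to 2.32 TPM in older pools and was listed at 0 in both 1 mpf pools (0.93 ± 0.42, limma adjusted p = 0.155), and slc38a8, with 0.225 to 1.8 TPM, against 0.817 and 0.507 TPM. slc6a18 reached 1 TPM in older pools only, so that it passed the filter only through the group where it is high. Its positive value is given with this limit. Only slc6a18, slc38a11 and slc7a9 had positive values among the 42 members.

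Of the slc6 family, slc6a15, a carrier of branched-chain amino acids and proline named B0AT2 in mammals, had 0.851 to 11.7 TPM with a median of 3.53 in older pools, against 28.7 and 31.3 TPM at 1 mpf. The pools did not overlap, with a change of -2.80 ± 0.64 (limma adjusted p = 0.0152). The pooled 3 mpf value hides a split, since slc6a15 had 0.211 TPM in one collection batch of 3 mpf and 36 TPM in the other, above both 1 mpf pools. With batches as separate pools the adjusted p of slc6a15 was 0.0619 (limma). slc6a17, a carrier of synaptic vesicles named NTT4, had 2.56 to 36.5 TPM, against 35.4 and 43.8 TPM, and its -1.65 ± 0.69 did not pass the test (limma adjusted p = 0.123). The collection batches differed for slc6a17 as well, with 4.33 and 47.7 TPM in those of 3 mpf and 39.8 and 2.42 TPM in those of 6 mpf. The large neutral facilitator slc43a2 had 96.6 to 393 TPM, against 278 and 273 TPM, with -0.86 ± 0.40 (limma adjusted p = 0.166). Without the 10 mpf pool its change was -1.03 with an adjusted p of 0.0292 (limma). Its duplicate slc43a2a had 10.6 to 73.4 TPM, against 44.3 and 57.9 TPM (-0.65 ± 0.65, limma adjusted p = 0.512), and slc7a6os had 5.89 to 20.9 TPM, against 25.9 and 26.7 TPM (-0.92 ± 0.39, limma adjusted p = 0.124).

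**Figure D4:**
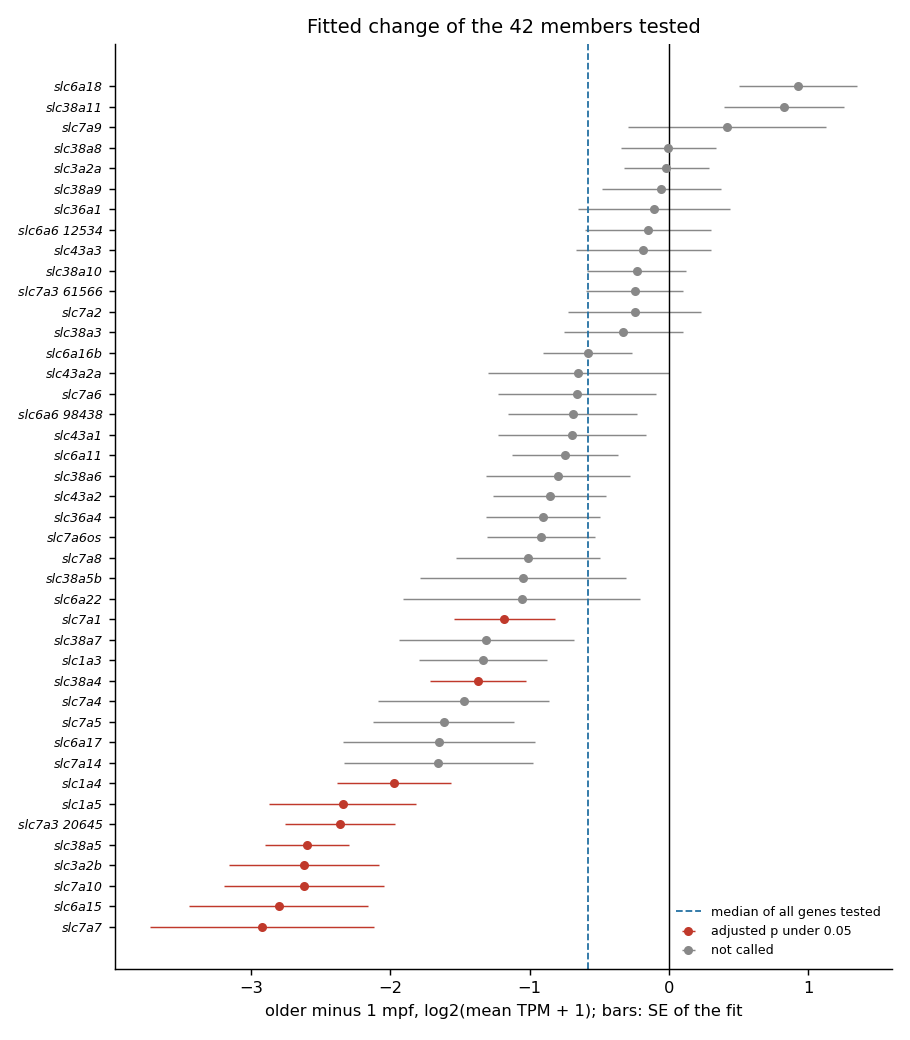
Fitted change, older minus 1 mpf in log2(mean TPM + 1), of the 42 members tested, with the SE of the fit as bars; red members have an adjusted p under 0.05 (limma) and the dashed line is the median of all genes, -0.58. The 10 called members lie between -1.18 and -2.92; slc7a7 lost its change when cells with markers of other types were left out.

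The calls were lost with only 1 pool of 1 mpf and depended on the scaling. Without the first or without the second 1 mpf pool, a fit whose lone pool is assumed to vary like the older ones, 0 members were called by limma (11 and 10 of 40 tested at an unadjusted p under 0.05), with slc1a4 at -1.93 (adjusted p = 0.204) and -2.02 (adjusted p = 0.187) and slc3a2b at -2.32 (adjusted p = 0.226) and -2.92 (adjusted p = 0.127). These values lay close to those with both pools, -1.98 and -2.62. slc38a5, which reached 1 TPM in the 1 mpf pools only, did not pass the filter in either case and was not tested. After rescaling TPM without ins only slc38a5 was called, at -3.19 (limma adjusted p = 0.00169), and slc3a2b was at -1.94 (limma adjusted p = 0.0501). With median-ratio size factors slc38a5 and slc7a3 (ENSDARG00000020645) were called, and edgeR on recovered reads called 0 members (9 of 50 tested at an unadjusted p under 0.05). The direction of the 10 called members was negative under each of these scalings. Over all genes 2.38% of the calls were higher in older pools, and 17.2% without ins, 24.5% with median-ratio factors, 28.9% with edgeR and 75.7% with DESeq2. The summed TPM of all members was 517 to 1418 in older pools, against 2277 and 2068 at 1 mpf. After rescaling without ins the sums were 2054 to 4382 in older pools, against 4718 and 4260 at 1 mpf, so that the second 4 mpf pool overlapped with 1 mpf.

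Over log2 age in the 12 normally fed plate pools 4 of 42 members fell at an adjusted p under 0.05 (limma) and 0 rose, against 3.34% and 0.198% of all genes (3.54% in either direction). These pools are shared with the comparison above, and slc38a5 again reached 1 TPM in the 1 mpf pools only. Per doubling of age slc1a4 fell by 0.57 ± 0.10 on the log2 scale (limma adjusted p = 0.0129), slc3a2b by 0.70 ± 0.15 (adjusted p = 0.02), slc38a5 by 0.55 ± 0.14 (adjusted p = 0.0399) and slc7a7 by 0.92 ± 0.21 (adjusted p = 0.0258), where the median of all genes was -0.14. By pool slc1a4 had 1065 and 1004 TPM at 1 mpf and 493 TPM at 1.5 mpf. The 3 mpf pool had 255 TPM, the 4 mpf pools 310 and 717 TPM and the 6 mpf pool 264 TPM. The 9 mpf pool had 156.3 TPM, the 10 mpf pool 222, the 12 mpf pool 184.1, the 13 mpf pool 305 and the 14 mpf pool 199 TPM. The levels from 3 mpf on do not keep an order by age. Without cells with markers of other types the slc7a7 slope was -0.01 (limma adjusted p = 0.982) and the other 3 calls remained. Without the first or the second 1 mpf pool 0 members were called by limma (12 and 11 at an unadjusted p under 0.05). Without the 14 mpf pool the adjusted p was 0.0511 for slc3a2b and 0.0626 for slc38a5, and slc38a5 was also lost without the 6 mpf (0.0553), 9 mpf (0.0637) or 12 mpf pool (0.0551). slc38a11 had a slope of 0.31 ± 0.11 (limma adjusted p = 0.122). It passed the test under 3 alternatives, at 0.53 after rescaling without ins (limma adjusted p = 0.0395), at 0.25 with the mean over cells of log2(TPM + 1) (limma adjusted p = 0.0494) and at 0.61 with DESeq2 on recovered reads (adjusted p = 9.02e-05). It did not with edgeR on the same reads (0.60, adjusted p = 0.0857) or with the batches of 3 and 6 mpf as separate pools (0.28, limma adjusted p = 0.319).

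Adult against Adolescent pools, on summed counts with edgeR's quasi-likelihood test, gave 0 calls among 44 members tested and 0 among all 14128 genes, a share of 0%. At an unadjusted p under 0.05 edgeR gave 0 members and 3.6% of all genes. DESeq2 called 0.497% of the genes and 0 members, with 2 members at an unadjusted p under 0.05, and limma on TPM called 1 gene and 0 members. slc1a4 had 222, 184.1 and 199 TPM in the Adult pools, against 255, 310 and 264 TPM in the Adolescent pools. These did not overlap, and of the 44 members tested 5 lay lower in every Adult pool and 2 higher, against 6.79% and 3.22% of all genes. For slc1a4 the fitted value on counts was -0.40 ± 0.28 (edgeR adjusted p = 0.9999). slc38a11 had 49.8, 22.5 and 19.7 TPM in the Adult pools, against 23.7, 14.6 and 22.6 TPM, with 0.69 ± 0.41 (edgeR adjusted p = 0.9999).

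Older and 1 mpf pools that shared a collection or a plate gave the same directions for the main called genes. Cells of 12 and 1 mpf were collected together, and slc1a4 had 184.1 TPM in the 12 mpf pool, against 1065 TPM in the 1 mpf pool, a difference of -2.53 where the median of all genes was -0.56. On the shared plate slc1a4 had 305 TPM at 13 mpf, against 1004 TPM at 1 mpf, a difference of -1.71 where the median was -0.73. For slc3a2b the differences were -3.31 and -2.82, and for slc38a11 they were 0.54 and 1.21. Each pair has 1 pool a side, and both together were fitted with the pair as a block, an alternative chosen after seeing the data. With 1 residual degree of freedom a gene, the spread was mostly that borrowed by limma across genes. Of 36 members tested 8 were lower and 0 higher, against 6.94% of all genes called in either direction. Of the 8, slc1a5, slc7a3 (ENSDARG00000020645) and slc38a5 were under 1 TPM in both older pools, and so entered only through the 1 mpf pools. slc7a7, with 1.82 TPM at 12 mpf and 0 TPM at 13 mpf, also needed the 1 mpf pools to enter. The calls of these genes are given with this limit. slc1a4 was at -2.12 ± 0.36 (limma adjusted p = 0.00757) and slc3a2b at -3.07 ± 0.39 (limma adjusted p = 0.00132). Of the 10 members called over the 11 pools 7 were among the 8, with slc6a17 in addition (-2.61, limma adjusted p = 0.0167). slc7a7 is among the 7, and its change over the 11 pools was lost when cells with markers of other types were left out. slc7a10 (ENSDARG00000008100) at -1.77 (adjusted p = 0.0727), slc38a4 at -1.49 (0.0675) and slc7a1 at -0.86 (0.355) did not pass the limma test in the pairs.

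Feeding was compared between 1 pool of fish fed 3 times a day and 1 pool on intermittent feeding, so that the differences have no replicate and no test. Of the 20 members with at least 5 TPM in either pool 15 were lower in fish fed 3 times a day and 5 were higher. The median difference was -0.61 on the log2 scale, against -0.76 over all 7292 genes at such levels, of which 77.6% were lower. ins took 72.9% of the TPM in fish fed 3 times a day, against 61.2% in fish on intermittent feeding, and after rescaling without ins 11 members were lower and 9 higher. More than 2-fold lower were 8 of the 20 members and 40.7% of all genes, and more than 2-fold higher were 2 members and 8.16% of all genes. Of these members slc38a5b, slc7a4, slc43a3, slc7a8, slc1a3 (ENSDARG00000104431) and slc6a15 reached 5 TPM only in the pool where they are higher. They entered the 20 only through that pool, and the shares over all genes have the same limit.

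slc1a4 had 183.9 TPM with feeding 3 times a day, against 469 TPM with intermittent feeding. The 2 normally fed pools of 4 mpf had 310 and 717 TPM, so that the pool fed 3 times a day lay below both and the intermittent pool between them. slc3a2b had 32.8 TPM, against 98.3 TPM, beside 57.4 and 156.3 TPM in the normally fed pools. slc3a2a had 72.8 TPM, against 153.1 TPM, beside 103.7 and 103.04 TPM, and slc7a2 had 69.9 TPM, against 151.6 TPM, beside 127.8 and 37.3 TPM. For slc7a2 the 2 normally fed pools differed more than the diets did. On the log2 scale the diet differences of slc1a4, slc3a2b, slc3a2a and slc7a2 were -1.35, -1.56, -1.06 and -1.11. After rescaling without ins they were -0.72, -0.90, -0.61 and -0.36 in this order. With the mean over cells of log2(TPM + 1) they were -1.50, -0.23, -0.37 and -0.62. slc38a11 had 51.2 TPM, against 67.3 TPM, and both lay above the 14.6 and 12.8 TPM of the normally fed 4 mpf pools and above the highest normally fed plate pool, 49.8 TPM at 10 mpf. slc38a11 was read in 16 of 35 cells with feeding 3 times a day, against 15 of 43 with intermittent feeding.

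Of the members with the 4 largest differences in each direction between the diets, all were read in at most 9 of the 35 cells with feeding 3 times a day and at most 12 of the 43 with intermittent feeding. Only slc36a1 and slc38a6 among them reached 5 TPM in both pools, and the others entered only through the pool where they are higher. slc38a5b had 1.17 TPM with feeding 3 times a day, against 17.2 TPM with intermittent feeding (-3.07), read in 4 of 35 and 9 of 43 cells. slc7a4, a relative of the cationic carriers, had 1.41 TPM, against 13.5 TPM (-2.58), slc43a3, a nucleobase carrier in mammals, had 2.05 TPM, against 13.6 TPM (-2.26), and slc7a8 had 2.75 TPM, against 10.7 TPM (-1.64). Of these slc7a8 was read in 9 of 35 and 12 of 43 cells, slc7a4 in 2 of 35 and 4 of 43, and slc43a3 in 2 of 35 and 5 of 43. In the other direction slc1a3 (ENSDARG00000104431), the glutamate carrier of glia, had 6.29 TPM, against a listed 0, from 2 of 35 cells. slc6a15 had 7.35 TPM, against 0.287 TPM (2.70), read in 7 of 35 and 2 of 43 cells. The lysosomal proton-coupled carrier slc36a1 had 12.2 TPM, against 7.86 TPM (0.58), read in 9 of 35 and 5 of 43 cells. slc38a6 had 13.2 TPM, against 9.6 TPM (0.43), of which 1 cell held 70.9% in fish fed 3 times a day and 66.4% in fish on intermittent feeding.

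**Figure D5:**
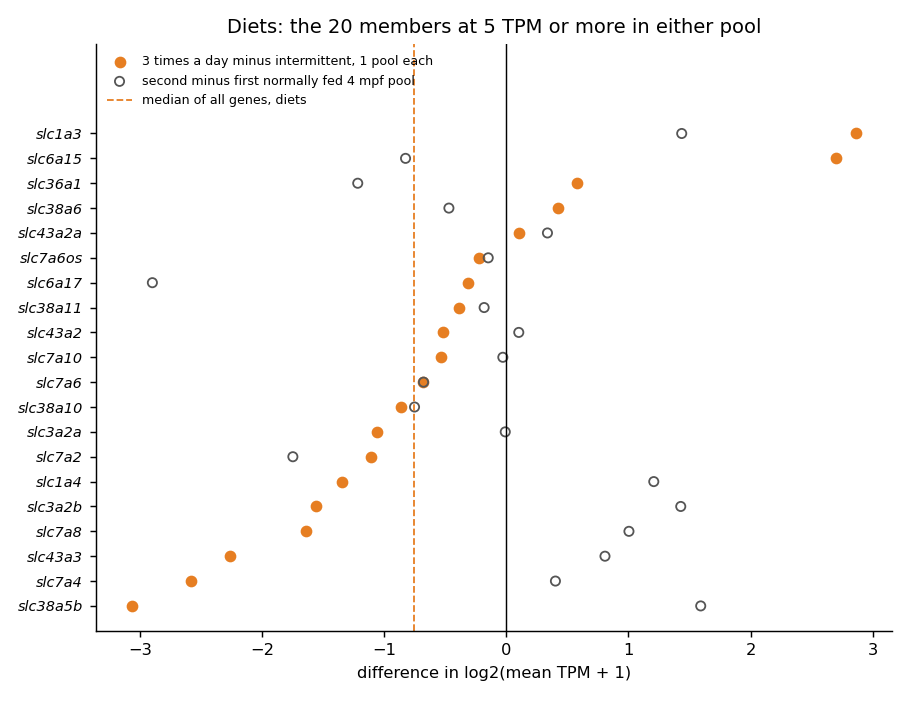
Difference in log2(mean TPM + 1), feeding 3 times a day minus intermittent feeding (filled, 1 pool each), and second minus first normally fed 4 mpf pool (open), for the 20 members at 5 TPM or more in either diet pool; the dashed line is the median of all genes for the diets, -0.76. 15 of the 20 filled points lie below 0, and the open points of slc7a2, slc6a17, slc36a1, slc43a2a and slc38a6 lie farther from 0 than the filled ones.

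Genes around the transporters were read as 3 further lists, chosen with earlier results of these data known. Of 25 genes tested of amino-acid sensing by mTORC1 3 were lower in older pools and 0 higher (limma), with a median of -0.47, against -0.58 over all genes. This is a share of 12%, against 10.6% of all genes called lower. One was sesn2, which encodes the leucine sensor Sestrin2, with 14.5 ± 12.2 TPM in older pools (SD, n = 9) and 83.6 ± 0.973 TPM at 1 mpf (SD, n = 2), a change of -2.81 ± 0.68 (limma adjusted p = 0.0196). The others were sec13 (-1.61) and rragcb (-1.57). rragcb had low levels, 0.72 ± 0.366 TPM in older pools (SD, n = 9) and 4.31 ± 2.53 TPM at 1 mpf (SD, n = 2). The calls of the 3 lists were not examined under the other scalings. Of 35 genes of amino-acid metabolism 8 were lower and 0 higher by limma, or 22.9% of the list against the 10.6% of all genes, with a median of -0.85. The largest changes were those of arg2, an arginase, with 20.6 ± 28.5 TPM in older pools and 145.03 ± 7.23 TPM at 1 mpf (-3.70), of cth (ENSDARG00000074301), which makes cysteine from cystathionine (-3.42), and of mat2a (ENSDARG00000037121), which makes S-adenosylmethionine (-2.33). The other gene matched to each symbol did not pass the test, with -1.48 for cth (ENSDARG00000032206, limma adjusted p = 0.206) and -1.30 for mat2a (ENSDARG00000040334, limma adjusted p = 0.0569). Of 15 other amino-acid carriers 1 (6.67%) was lower, slc25a12, the mitochondrial aspartate and glutamate exchanger, at -1.76 ± 0.46 (limma adjusted p = 0.0269), with a median of -0.45 over the list. In log2 age 2 of the 25 sensing genes (8%) and 0 of the other 2 lists were called lower by limma, against 3.34% of all genes.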

How the data were processed

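Beta-cells were sorted and sequenced as full-length cDNA. Per the study's methods and the submitters' processing notes, reads were trimmed with Trim Galore, aligned to GRCz10 with HISAT2 and counted with HTSeq; versions, annotation release and use of strand are not given in the sources used here, so that reads of slc7a6os and slc7a6 may not be told apart. The authors deposited raw counts for the 637 cells of 7 ages, and TPM for these and for 377 cells of the cohorts, which together are 1014 of the 1324 labelled cells. Gene lengths implied by counts and TPM gave whole reads for 100% of the cohort values within a tolerance of 0.02; these were used for depth, thinning and alternatives.

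Mean TPM per pool was tested as log2(mean TPM + 1) with limma 3.58.1 (R 4.3.3; at least 1 TPM in at least 2 pools), and summed counts with edgeR 4.0.16; DESeq2 1.42.0 was an alternative. For shares of cells the 95% interval is exact (Clopper-Pearson). Columns of the 1.5 mpf, C1 and second 4 mpf cells were tied to their pool by the title of the table; 0 columns were left without a sample, and 0 columns were identical. The members and gene lists were chosen with earlier results of these data known. Named were the 12 highest members, every member past a threshold, the 5 largest fitted changes in each direction, the heavy chains, the 4 largest diet differences in each direction and the 3 most variable members (slc7a7, slc6a15 and slc3a2b). 1 gene of these families is not reported here.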

Additional observations from a re-analysis of the deposited data

Results flagged for a closer look

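Within the 9 older pools 1 pool stood far from the others (Dixon's test at 95%, 28 named members examined, where chance flags about 1 in 20) for 6 members. For slc38a5 and slc3a1 the median older pool had 0 TPM, so that this rate does not hold. Their flags rest on values near 0. The second 4 mpf pool was far above the rest for slc1a4, with 717 TPM and 310 TPM in the next pool, and for slc38a5, with 0.662 TPM and 0.125 TPM in the next. The 10 mpf pool stood out for slc43a2 with 393 TPM, where the next pool had 177.1 TPM, and the 13 mpf pool for slc7a10 (ENSDARG00000008100) with 16.2 TPM, where the next had 5.81 TPM. The 14 mpf pool was highest for slc3a1 with 0.0856 TPM and lowest for slc7a6os with 5.89 TPM. In the 2 pairs of pools that shared a collection or a plate 3 of the 12 highest members went in opposite directions, which was not tested: 12 minus 1 mpf was -0.25 for slc3a2a, 0.059 for slc7a2 and 0.56 for slc43a2a, and 13 minus 1 mpf on the plate was 0.32, -0.43 and -2.35 for the same genes in this order.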

How the results depend on the processing

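For older against 1 mpf pools, 10 members and 10.9% of the genes were called. The members called and the percent of genes called were 6 and 5.63% with a pseudocount of 0.1, 20 and 50.5% with the mean over cells of log2(TPM + 1), 1 and 1.58% after rescaling without ins, 2 and 1.13% with median-ratio size factors, 5 and 3.77% with the C1 pool added, 0 and 0.22% with edgeR and 6 and 2.94% with DESeq2 on recovered reads. Of the 6 members called by DESeq2 4 were among the 10, and slc38a11 (2.05) and slc6a18 (9.36, a value set by the 0 at 1 mpf) were the others, both higher. With the 2 pairs of pools that shared a collection or a plate as a block, chosen after seeing the data, 8 members and 6.94% of genes were called. Leaving out 1 pool gave 0 to 12 members and 0.199 to 15.05% of genes. For log2 age, with 4 members and 3.54%, the values were 2 and 1.69% with a pseudocount of 0.1, 0 and 0.184% without a filter, 22 and 38.6% with the mean over cells of log2(TPM + 1), 1 (slc38a11, higher) and 0.409% without ins, 0 and 0.593% with median-ratio factors, 1 and 0.297% with the C1 pool, 1 and 1.22% with batches as separate pools, 0 and 0.117% with edgeR and 4 (slc1a4, slc3a2b, slc38a5 and, higher, slc38a11) and 2.50% with DESeq2 on recovered reads, and 0 and 0% with edgeR on counts of the training pools. Leaving out 1 pool gave 0 to 8 members and 0.0225 to 6.76% of genes. For Adult against Adolescent pools DESeq2 called 0.497% and limma 0.00843% of genes. For the diets the members lower in fish fed 3 times a day were 9 of 20 with the mean over cells of log2(TPM + 1), and 15 as reported. The cause of these shifts was not tested.

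Among members with a changed sign 0 had been called. In older against 1 mpf pools slc3a2a was at 0.049 with the mean over cells of log2(TPM + 1), 0.65 without ins, 0.73 with median-ratio factors, 0.66 with edgeR, 0.69 with DESeq2, 0.39 without cells with markers of other types and 0.034 in the paired fit, where slc7a9 was at -0.10. slc7a2 was at 0.10, 0.22, 0.50, 0.24 and 0.27 under the first 5 of these. slc43a2a was at 0.0088, 0.085, 0.19 and 0.21, and slc38a8 at 0.39, 0.28, 0.98 and 1.00, under rescaling without ins, median-ratio factors, edgeR and DESeq2. Leaving out 1 pool moved slc3a2a between -0.27 and 0.23, slc7a9 between -0.35 and 1.18 and slc38a8 between -0.14 and 0.13. In Adult against Adolescent pools slc43a2a was at -0.046 with batches as separate pools and -0.072 with limma. Leaving out 1 pool moved it between -0.39 and 0.66 and slc3a2b between -0.59 and 0.35. The numbers in the labels are those of cells and wells and pair no pools, so that pools were paired only by shared collection or plate. With 2 pools at 1 mpf and 1 per diet, and reads of several members in few cells, only large changes could be detected.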
